A study of Homo sapiens with 4 samples.

Results

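Hemoglobin genes and the factors that drive them were read in Jurkat cells, a human T-cell acute lymphoblastic leukemia line, after knockdown of LEF1. The genes were HBZ, HBE1, HBG1, HBG2 and HBA1, which encode globin chains, the erythroid transcription factors KLF1 and GATA1, the heme synthesis enzyme gene ALAS2 and the erythropoietin receptor gene EPOR. They were chosen by symbol. Every probe set annotated to 1 of these 9 genes, of 21357 genes on the array, or shared only among globin genes was taken, which gave 22 of 54613 probe sets. Because this choice was made with the siLEF1 and siNT values of these genes already known, their differences are given as a description, without a test. The study hybridized RNA to HG-U133 Plus 2.0 arrays, on which a probe set is a group of short probes that reads a transcript near its 3' end. The siLEF1 group had 2 arrays of cells transfected with 100 nM of a LEF1 siRNA pool and the siNT group 2 arrays of cells transfected with 100 nM of a non-targeting pool, all collected 24 h later. Both groups received the same transfection reagent, and the labels call the 2 samples of a group biological replicates of 1 cell line. All signals are RMA values on the log2 scale as the authors deposited them, so a difference of 1 is a factor of 2.

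Hemoglobin of the red cell joins chains of the alpha and the beta family. The genes of each family lie in a cluster in the order in which development uses them, with HBZ and HBE1 active in the embryo, HBG1 and HBG2 in the fetus, HBA1 and HBA2 from the fetus on, and HBB and HBD mainly after birth. GATA1 and KLF1 bind at these clusters in erythroid cells, and repressors such as BCL11A keep the fetal genes silent in the adult. Mature T cells do not normally make globins. Jurkat cells carry activated TAL1, a transcription factor that forms a complex with GATA1, LMO2 and LDB1 in erythroid cells.

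The brightest probe set of LEF1 itself read 11.24 and 11.56 in siLEF1 cells, against 12.30 and 11.92 in siNT cells. This is a log2 difference of -0.71 (n = 2 arrays per group), and the limma adjusted p of 0.191 missed the threshold. The next brightest LEF1 probe set had 6.88 and 7.24 in siLEF1 cells, against 8.20 and 7.78 in siNT cells (-0.93, limma adjusted p = 0.141). In the dimmest the groups overlapped (-0.19, limma adjusted p = 0.673). By other methods at 24 h, the study itself reported reduced LEF1 mRNA in siLEF1 cells by quantitative PCR and hardly any LEF1 protein by western blot. A call needed an adjusted p under 0.05 together with a fold change over 2, which 0.183% of all probe sets met as lower and 0.0238% as higher. The median signals of the 4 arrays ran from 4.84 to 4.85. Of the 16 T-cell marker genes measured, 15 had a signal over the median of at least 1 array. The same held for 9 of 9 erythroid markers outside the members and 4 of 7 B-cell markers. This bar therefore does not check the T-cell label.

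Among the embryonic and fetal genes the signals of the gamma-globins HBG1 and HBG2 were far above the median of the arrays. Their mRNAs are nearly identical, and each of the 3 probe sets is annotated to both genes, so that the pair was read as one. The brightest of these probe sets had signals of 10.11 and 9.88 in siLEF1 cells, against 12.14 and 11.54 in siNT cells. Both siLEF1 arrays thus lay below both siNT arrays, by at least 1.42, and the siNT replicates themselves differed by 0.61. The log2 difference was -1.84, or 3.59-fold lower in siLEF1 cells. The other 2 probe sets had differences of -1.98 each, with siNT replicate 1 above replicate 2 by 0.72 and 0.73. In bulk RNA, fewer cells with globin transcripts and less globin RNA per cell cannot be told apart.

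HBZ, the embryonic alpha-like chain, was read by 1 probe set. Its signals were 5.46 and 5.39 in siLEF1 cells, against 7.06 and 6.75 in siNT cells. The replicates lay close together in both groups, 0.07 apart in siLEF1 cells and 0.31 apart in siNT cells, and the groups were separated by 1.29. The difference was -1.48 on the log2 scale (2.79-fold lower). HBZ was the only member of the 22 probe sets that met the thresholds for a call, against 0.183% of all probe sets, a count from which nothing is read because the members were chosen on this contrast. The HBZ difference was -1.63 against siNT replicate 1 alone and -1.33 against siNT replicate 2 alone. The count of calls changed when 1 array was left out, as given at the end beside the counts over the array.

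HBE1, the embryonic beta-like chain, had 2 probe sets that differed from each other. The brighter had signals of 4.59 and 4.83 in siLEF1 cells, against 6.01 and 5.70 in siNT cells, a log2 difference of -1.15 (2.21-fold lower). Each siLEF1 signal was lower than the median of its array, so the size of this fold is uncertain. The dimmer one lay under the median in all 4 arrays, with 3.98 and 4.003 in siLEF1 cells against 3.82 and 4.11 in siNT cells, and its groups overlapped.

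The alpha-globins HBA1 and HBA2, which supply the alpha chain of fetal and adult hemoglobin, shared 6 probe sets. The brightest had signals of 10.14 and 10.03 in siLEF1 cells, against 12.09 and 11.40 in siNT cells. Its log2 difference was -1.66 (3.16-fold lower), and the gap between the groups was 1.26. Over all 6 probe sets the signals ran from 8.50 to 10.14 in siLEF1 cells and from 9.85 to 12.09 in siNT cells, and the differences lay between -1.66 and -1.53. In each of the 6, siNT replicate 1 was the highest array and siLEF1 replicate 2 the lowest. These 6 probe sets read the same mRNAs and are not replicates of one another.

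**Figure D1:**
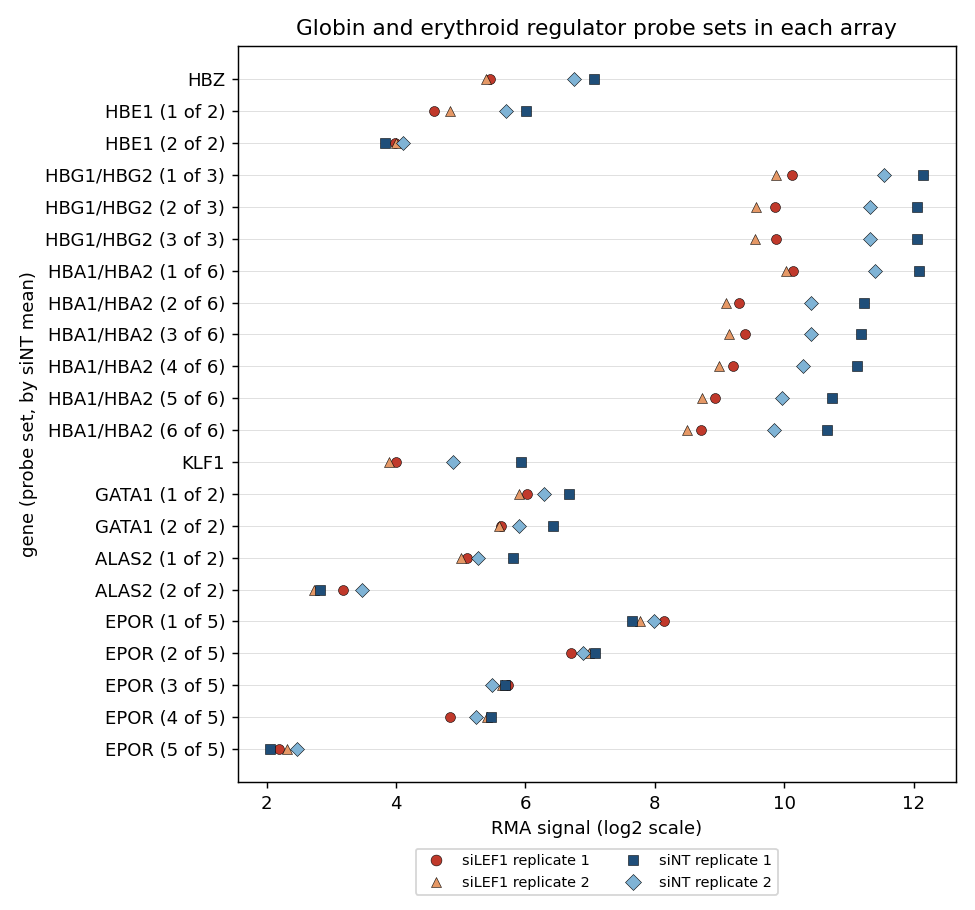
Log2 RMA signal (horizontal axis) of the 22 probe sets of the globin and erythroid regulator genes in each of the 4 arrays, with circles and triangles for the siLEF1 replicates and squares and diamonds for the siNT replicates. In 15 probe sets both siLEF1 arrays lie left of both siNT arrays, while the 5 EPOR probe sets show no such gap. The 15 include the 6 shared by HBA1 and HBA2 and the 3 shared by HBG1 and HBG2. Over the array 21.2% of probe sets are placed so, a share given for scale only.

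Taking the 12 globin probe sets together, 11 had both siLEF1 arrays below both siNT arrays and 11 were over 2-fold lower. The same held for 21.2% and 2.34% of all probe sets, shares that are given for scale only, since the members were chosen on this contrast. The median log2 difference was -1.62 for the globin probe sets and -1.30 for all 22, against 0.04 for all probe sets of the array. With siNT replicate 1 left out the median of the 22 was -0.96. Names that end in _x_at mark probe sets with probes that can also bind other transcripts, and all 9 shared HBA and HBG probe sets are of this kind. The remaining 3 globin probe sets, those of HBZ and HBE1, had a median of -1.15. The order of the arrays was shared as well. In 10 of the 12 globin probe sets siNT replicate 1 was highest, followed by siNT replicate 2, siLEF1 replicate 1 and siLEF1 replicate 2. This order was found in 2.63% of all probe sets, again given for scale only, since it includes the contrast on which the members were chosen. The 10 include all 9 shared HBA and HBG probe sets, which are not independent readings. Considering the siNT arrays alone, replicate 1 exceeded replicate 2 in 11 of the 12 globin probe sets and in 48.6% of all probe sets.

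Of the erythroid regulators, KLF1, a zinc finger activator of erythroid genes, differed most. Its signals were 4.002 and 3.89 in siLEF1 cells, against 5.93 and 4.89 in siNT cells. All siLEF1 values were under the array medians, and the siNT replicates lay 1.04 apart, more than the gap of 0.89 between the groups. The log2 difference was -1.46 with both siNT arrays, and it was -1.98 against siNT replicate 1 alone and -0.94 against siNT replicate 2 alone.

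GATA1, the master factor of erythroid and megakaryocyte development, was read by 2 probe sets. The brighter had signals of 6.03 and 5.91 in siLEF1 cells, against 6.67 and 6.28 in siNT cells. The other had 5.62 and 5.60 in siLEF1 cells, against 6.43 and 5.89 in siNT cells. Both had the order of arrays seen in the globins, with smaller differences of -0.51 and -0.55. ALAS2, which encodes the erythroid form of the first enzyme of heme synthesis, had 5.10 and 5.01 in siLEF1 cells, against 5.80 and 5.27 in siNT cells, a difference of -0.49 in its brighter probe set. Its siLEF1 and siNT signals were only 0.18 apart at the closest. The dimmer ALAS2 probe set was under the median in all 4 arrays and its groups overlapped.

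EPOR, the receptor through which erythropoietin supports red cell precursors, had 5 probe sets of its own, and in each the groups overlapped. The brightest had signals of 8.14 and 7.77 in siLEF1 cells, against 7.65 and 7.99 in siNT cells. The 5 differences ran from -0.23 to 0.13, of which 3 were below 0, and all 5 were below 0 when the arrays were centred on housekeeping genes, which moved every log2 difference on the array by -0.23. A further probe set, annotated to EPOR and RGL3 and therefore not a member, had 7.73 and 7.88 in siLEF1 cells, against 7.94 and 7.93 in siNT cells. None of the EPOR probe sets had the array order of the globins.

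The promoters of KLF1, ALAS2 and EPOR are shown because each held a match to a motif of GATA factors. This choice was made with their differences between the groups known, and the part of these motifs in the differences was not tested. Sequences came from RefSeq (GRCh38.p14), which gave the window from 250 bases before to 50 bases after the start of 4 of the 9 genes, namely KLF1, GATA1, ALAS2 and EPOR. Capitals mark GATA motifs, searched on both strands as AGATAA and its variants that begin with T (TGATAA) or end with G (AGATAG), or both (TGATAG). Each sequence is given in the direction of transcription.
KLF1 (chr19:12887152-12887451, minus strand): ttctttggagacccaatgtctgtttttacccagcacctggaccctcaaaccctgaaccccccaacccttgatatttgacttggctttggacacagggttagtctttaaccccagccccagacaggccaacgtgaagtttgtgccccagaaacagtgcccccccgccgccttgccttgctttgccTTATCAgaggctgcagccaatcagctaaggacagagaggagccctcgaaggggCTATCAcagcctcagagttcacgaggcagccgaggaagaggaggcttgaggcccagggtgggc
ALAS2 (chrX:55030928-55031227, minus strand): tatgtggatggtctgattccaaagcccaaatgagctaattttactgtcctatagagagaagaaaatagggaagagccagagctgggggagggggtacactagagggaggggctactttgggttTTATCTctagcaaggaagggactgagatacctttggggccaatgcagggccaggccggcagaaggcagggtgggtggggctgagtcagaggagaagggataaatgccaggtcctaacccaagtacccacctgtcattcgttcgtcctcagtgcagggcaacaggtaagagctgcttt
EPOR (chr19:11384265-11384564, minus strand): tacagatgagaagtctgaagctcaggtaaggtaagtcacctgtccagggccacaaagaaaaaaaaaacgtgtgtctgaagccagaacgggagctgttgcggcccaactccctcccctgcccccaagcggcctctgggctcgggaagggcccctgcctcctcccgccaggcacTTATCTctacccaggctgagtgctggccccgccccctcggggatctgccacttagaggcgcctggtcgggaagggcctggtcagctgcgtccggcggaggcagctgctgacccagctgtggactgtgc
The KLF1 window held 2 matches, which began 66 and 13 bases before the start. The ALAS2 window held 1 match, 127 bases before the start, and the EPOR window 1 match, 78 bases before it. These matches did not overlap one another, and all were on the opposite strand. In the GATA1 window there was none. A GATA motif of this kind was present in 25% of 35116 promoter windows of the same length. The LEF1/TCF motif, searched on both strands as CTTTGAA and, with another last base, as CTTTGAT, occurred in 6.86% of the windows and in 0 of these 4.

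The other genes of the globin clusters were compared next, since they share enhancers with the members. HBBP1, a beta-globin pseudogene between the fetal and adult genes, had signals of 5.48 and 5.24 in siLEF1 cells, against 7.88 and 6.49 in siNT cells. Its log2 difference of -1.83 did not pass (standard error 0.42, limma adjusted p = 0.142). HBD, the minor adult chain, had 4.78 and 4.84 in siLEF1 cells, against 6.67 and 5.45 in siNT cells (-1.25, limma adjusted p = 0.204). Each siLEF1 signal of HBD was under the median of its array. HBB, the adult beta chain, had 4 probe sets, of which the brightest gave 6.74 and 6.66 in siLEF1 cells, against 7.35 and 7.03 in siNT cells (-0.49, limma adjusted p = 0.257). Of the other HBB probe sets, 2 were over 2-fold lower and 1 had overlapping groups. In the alpha cluster HBM, a minor alpha-like gene, had overlapping groups (0.15, limma adjusted p = 0.726). HBQ1, which encodes theta-globin, had 7.65 and 7.89 in siLEF1 cells, against 7.58 and 6.98 in siNT cells (0.49, limma adjusted p = 0.379). Of these 5 cluster genes 0 passed in limma, with 3 at an unadjusted p under 0.05, and 0.263% of all genes passed as lower and 0.0657% as higher. Counts at an unadjusted p under 0.05, here and in the lists below, are given without the share of all genes. Nothing is read from them.

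The nearest protein-coding genes on either side of each cluster with a probe set of their own were looked up in RefSeq order, a choice made after the globin values were seen. NPRL3, whose introns hold the alpha-globin enhancers, had 8.02 and 8.09 in siLEF1 cells, against 7.87 and 7.44 in siNT cells (0.40, limma adjusted p = 0.374). LUC7L, on the other side, had 10.51 and 10.52 in siLEF1 cells, against 10.55 and 10.56 in siNT cells (-0.04, limma adjusted p = 0.924). Read by their brightest probe sets, none of the 12 neighbours, 6 per cluster, had a difference below -0.15, with deposited scaling. Dimmer probe sets ran from -0.16 to 0.15 for LUC7L and from -0.06 to 0.38 for NPRL3. All 6 neighbours of the beta cluster were dim, with mean signals of 3.58 to 5.05, and 5 of them are olfactory receptor genes. The globin fold genes that lie elsewhere, MB, CYGB and NGB, which encode myoglobin, cytoglobin and neuroglobin, had differences of 0.00, 0.18 and 0.42, and 0 of the 3 passed in limma, with 1 at an unadjusted p under 0.05.

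**Figure D2:**
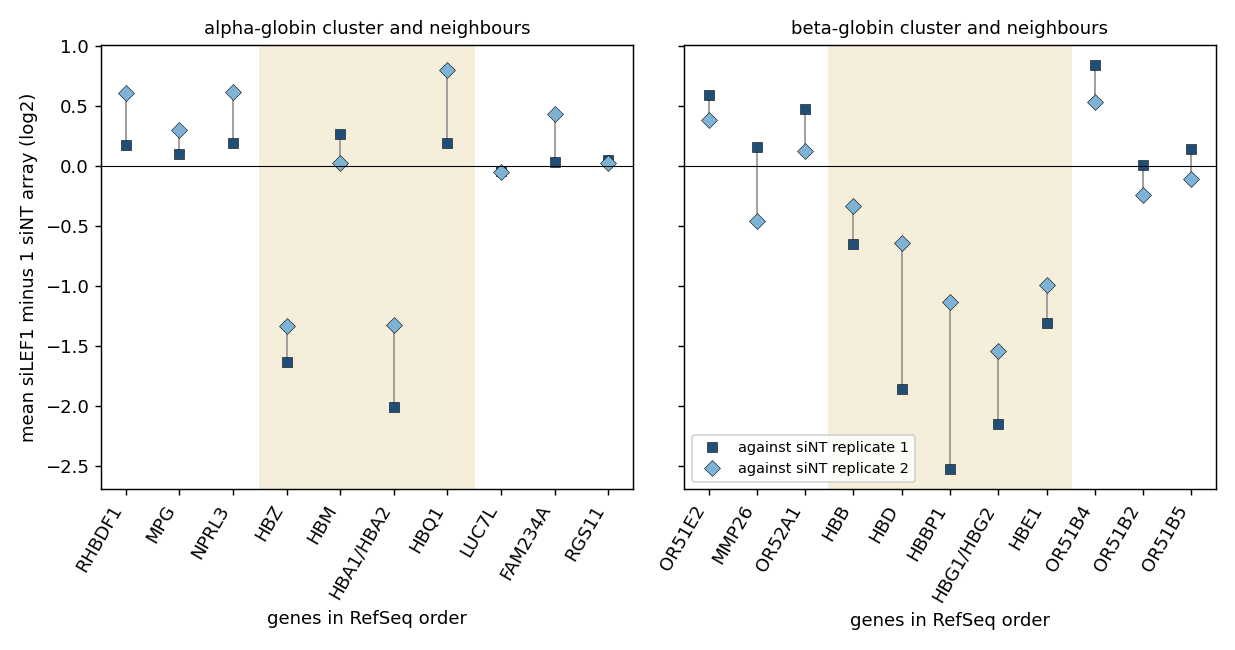
Difference on the log2 scale between the mean of the siLEF1 arrays and each siNT array (vertical axis; squares against siNT replicate 1, diamonds against siNT replicate 2) for the brightest probe set of each gene of the alpha and beta clusters (shaded) and their neighbours, in RefSeq order. HBZ, HBA1/HBA2, HBG1/HBG2, HBBP1, HBD, HBE1 and HBB lie below 0 against both siNT arrays, and HBM and HBQ1 do not.

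Transcription factors that work with GATA1 and KLF1 were listed apart from the members, and 22 of 24 were measured. Of these, 0 passed in limma, with 8 at an unadjusted p under 0.05, and the median log2 difference was -0.10, against 0.02 for all genes. Both siLEF1 arrays lay below both siNT arrays in 10 of the 22, against 26.4% of all genes. GATA2, the GATA factor of early progenitors, had 6.54 and 6.57 in siLEF1 cells, against 7.95 and 7.27 in siNT cells (-1.05, limma adjusted p = 0.139). NFE2, which with a small MAF protein binds the globin enhancers, had 4.76 and 4.52 in siLEF1 cells, against 6.66 and 5.52 in siNT cells (-1.45, limma adjusted p = 0.157). Each siLEF1 signal of NFE2 was under the median of its array. LMO2, the bridging protein of the TAL1 complex, had 6.27 and 6.34 in siLEF1 cells, against 7.53 and 6.95 in siNT cells (-0.94, limma adjusted p = 0.142). In all 3 genes siNT replicate 1 was the highest array, as in the globins.

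The transcription factor KLF10 ran differently. It had 8.83 and 8.64 in siLEF1 cells, against 9.81 and 10.33 in siNT cells (-1.33, limma adjusted p = 0.0829), with siNT replicate 2 highest. TAL1 and LYL1, a close relative of TAL1, are outside the rule for naming genes and were added after their values were seen. The brightest TAL1 probe set had 9.38 and 9.51 in siLEF1 cells, against 9.63 and 9.20 in siNT cells, so that the groups overlapped. LYL1 had 7.06 and 6.84 in siLEF1 cells, against 8.04 and 7.46 in siNT cells (-0.80, limma adjusted p = 0.190).

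Repressors of embryonic and fetal globin genes, their corepressors and developmental switch genes formed a list of 29, all measured. Their median log2 difference was 0.15, and -0.07 with housekeeping centring. In 13 of the 29 both siLEF1 arrays lay above both siNT arrays, against 28.1% of all genes, and below them in 6, against 26.4%. The difference was below 0 in 10 of the 29. In limma 0 passed, with 6 at an unadjusted p under 0.05. BCL11A, the main repressor of gamma-globin, had 9.21 and 9.25 in siLEF1 cells, against 8.65 and 7.74 in siNT cells (1.04, limma adjusted p = 0.189). ZBTB7A, a second repressor of the gamma genes, had 8.66 and 9.08 in siLEF1 cells, against 8.22 and 8.25 in siNT cells (0.63, limma adjusted p = 0.203). Both repressors are known to bind the gamma promoters directly. For the histone demethylase KDM1A the difference was 0.44 and for NFIX it was 0.57 (limma adjusted p = 0.262 and 0.281). LIN28B, named after its values were seen, went the other way (-0.94, limma adjusted p = 0.376).

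Of 30 heme synthesis and iron handling genes, 25 were measured, of which 10 were below 0, and 0 passed in limma, with 7 at an unadjusted p under 0.05. Both siLEF1 arrays lay above both siNT arrays in 12 of the 25, against 28.1% of all genes, and below them in 4, against 26.4% of all genes. The median was 0.13, and -0.09 with housekeeping centring. ABCB10, a mitochondrial transporter needed for heme synthesis, had 10.74 and 10.44 in siLEF1 cells, against 9.54 and 9.22 in siNT cells (1.21, limma adjusted p = 0.0828). ALAS1, the form of the first enzyme found in all tissues, had 10.15 and 10.18 in siLEF1 cells, against 10.61 and 11.03 in siNT cells (-0.66, limma adjusted p = 0.191). CLPX, a mitochondrial unfoldase that acts on that enzyme, had a difference of -0.72, and HMOX2, which degrades heme, one of 0.55 (limma adjusted p = 0.209 and 0.255).

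Among 21 of 22 genes of erythropoietin receptor signaling other than EPOR, 0 passed in limma, with 4 at an unadjusted p under 0.05, and the median was -0.06. KIT, the receptor for stem cell factor on erythroid progenitors, had 6.12 and 6.20 in siLEF1 cells, against 8.25 and 6.88 in siNT cells (-1.41, limma adjusted p = 0.20). JAK2, the kinase bound to the receptor, had 6.51 and 6.78 in siLEF1 cells, against 7.27 and 7.18 in siNT cells (-0.57, limma adjusted p = 0.195). ID1, an inhibitor of basic helix-loop-helix factors, had 8.43 and 8.28 in siLEF1 cells, against 9.44 and 9.89 in siNT cells (-1.31, limma adjusted p = 0.0767). SOCS3, a feedback inhibitor of cytokine receptors, had a difference of -0.78 (limma adjusted p = 0.265) and was under the median in 3 arrays.

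The red cell membrane and late erythroid list split into a few genes with large differences and many with small ones. Of 24 genes measured out of 30, 4 were over 2-fold lower, against 2.9% of all genes, and 0 passed in limma, with 6 at an unadjusted p under 0.05. The median was -0.01. RHAG, the Rh-associated membrane glycoprotein, had 4.27 and 3.92 in siLEF1 cells, against 7.52 and 5.98 in siNT cells (-2.66, limma adjusted p = 0.0952). XK, a red cell membrane protein, had 3.49 and 4.07 in siLEF1 cells, against 6.73 and 4.95 in siNT cells (-2.06, limma adjusted p = 0.174). In both, siLEF1 signals were under the array medians. The carbonic anhydrases CA1 and CA2, enzymes abundant in red cells, had differences of -1.57 and -1.96 (limma adjusted p = 0.133 and 0.117). The siLEF1 signals of CA2 were under the array medians as well. In all 4 genes siNT replicate 1 was highest, by 1.07 to 1.79 over replicate 2. By contrast SLC4A1, the band 3 anion exchanger, had 4.82 and 4.77 in siLEF1 cells, against 4.83 and 4.90 in siNT cells, and AHSP, the alpha-globin chaperone, 5.68 and 5.59 in siLEF1 cells, against 5.74 and 5.78 in siNT cells, both named after their values were seen.

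**Figure D3:**
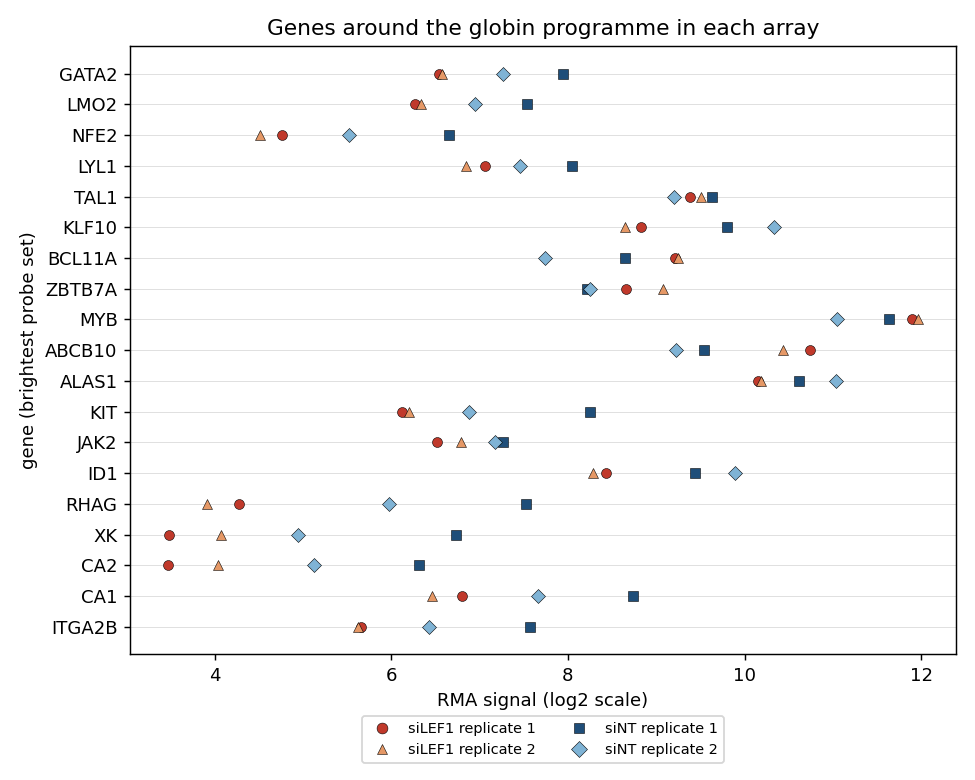
Log2 RMA signal (horizontal axis) of 19 genes of the related lists in each of the 4 arrays, with circles and triangles for the siLEF1 replicates and squares and diamonds for the siNT replicates. GATA2, LMO2, NFE2, LYL1, KIT, RHAG, XK, CA2, CA1 and ITGA2B have siNT replicate 1 as the highest array. So do TAL1, whose groups overlap, JAK2, and the globin members apart from the dimmer HBE1 probe set. KLF10, ALAS1 and ID1 have siNT replicate 2 highest.

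Markers of cell types are given beside these values. The erythroid marker list without the members, 9 of 12 genes measured, had a summed linear signal of 539 and 621 in siLEF1 cells, against 1146 and 662 in siNT cells, and none of its genes was under the median in all 4 arrays. Its median log2 difference was -0.18, with values from -2.66 for RHAG to 0.58 for TRIM58, and 7 of the 9 genes were below 0. The megakaryocyte list, 5 of 6 genes, summed to 215 and 217 in siLEF1 cells, against 394 and 257 in siNT cells, with a median log2 difference of -0.11. In 2 of the 5 both siLEF1 arrays lay below both siNT arrays, against 26.4% of all genes. The chemokine genes PF4 and PPBP had differences of 0.04 and 0.19, both of which fall below 0 with housekeeping centring. TRIM58, PF4 and PPBP were named after their values were seen. The integrin gene ITGA2B had 5.66 and 5.63 in siLEF1 cells, against 7.57 and 6.42 in siNT cells (-1.35, limma adjusted p = 0.171). The T-cell list, 16 of 18 genes, summed to 22166 and 22990.5 in siLEF1 cells, against 21156.6 and 16404.5 in siNT cells, and its median log2 difference was 0.21, or -0.02 with housekeeping centring. BCL11B and CD3G, which T cells need for development and for the receptor complex, had differences of 1.11 and 0.83 (limma adjusted p = 0.123 each), and the T-cell genes CD7 and CD247 had 0.56 and 0.43 (limma adjusted p = 0.285 and 0.296). Myeloid, B-cell and epithelial and stromal markers had medians of -0.14, 0.10 and 0.01, with 9 of 10, 7 of 8 and 10 of 10 genes measured. Myeloid markers summed to 299 and 345 in siLEF1 cells, against 359 and 334 in siNT cells. B-cell markers summed to 328 and 377 in siLEF1 cells, against 352 and 333 in siNT cells. Epithelial and stromal markers summed to 660 and 627 in siLEF1 cells, against 648 and 718 in siNT cells. In the 6 marker lists 0 genes passed in limma, with 4 erythroid, 2 megakaryocyte, 6 T-cell, 1 myeloid, 0 B-cell and 2 epithelial and stromal genes at an unadjusted p under 0.05. The part of these cell types in the globin values was not tested.

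**Figure D4:**
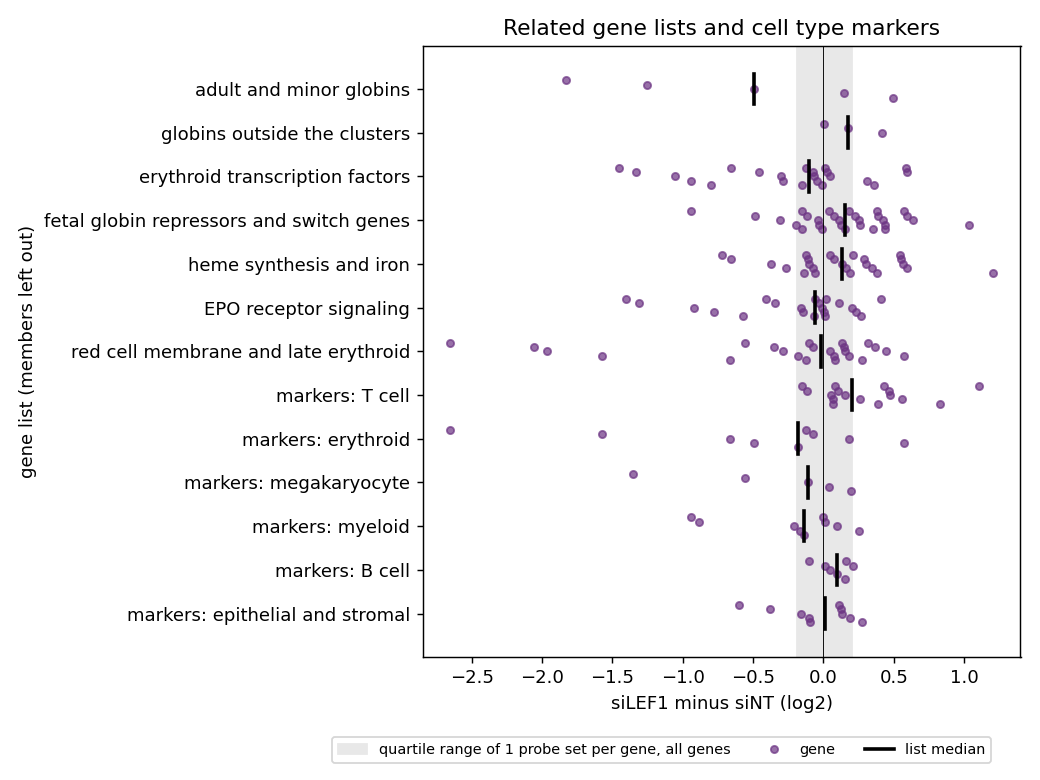
Log2 difference, siLEF1 minus siNT (horizontal axis), of each measured gene of the related lists and cell type marker lists, with the members left out, a bar at each list's median and the quartile range of all genes shaded. The lists overlap the range of all genes, and single genes such as RHAG at -2.66 and HBBP1 at -1.83 lie far to the left of it.

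RNA quality differed between the groups in the same arrays. The 5' minus 3' log2 signal of the ACTB control probe sets was -1.08 and -1.55 in siLEF1 cells, against -1.80 and -1.95 in siNT cells. That of GAPDH was -0.34 and -0.32 in siLEF1 cells, against -0.39 and -0.65 in siNT cells. For both genes the values were more negative in both siNT arrays than in both siLEF1 arrays, and the part of RNA quality in the globin values was not tested.

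The genes most like the embryonic and fetal globins over the 4 arrays were sought among 17178 bright probe sets with 1 symbol (mean log2 signal of at least 6), by the Euclidean distance between log2 values centred on their own mean. For HBG1 and HBG2 these were MGST1 (0.32), SKIL (0.32) and CNRIP1 (0.40). HBZ, searched among 17177 because its own probe set was left out, was closest to FNIP1 (0.11), CD24 (0.11) and TMEM44-AS1 (0.20), and HBE1 to ZDBF2 (0.09), ERMP1 (0.15) and GDPD1 (0.17). The distances rest on 4 arrays, and probe sets shared among globin genes or with a lower mean signal were not among the candidates. MGST1, a microsomal glutathione transferase, had 5.39 and 5.21 in siLEF1 cells, against 7.82 and 6.86 in siNT cells.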

How the data were processed

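RNA of Jurkat cells was hybridized to HG-U133 Plus 2.0 arrays (Affymetrix), and the 4 deposited arrays, 2 siLEF1 and 2 siNT, were grouped by their labels. Per the labels, the authors used Expression Console 1.1 and RMA, and they deposited log2 values for each probe set. It is not stated whether arrays of non-transfected cells shared this run. Differences were computed as siLEF1 minus siNT with the limma package (3.58.1, R 4.3.3) by lmFit and 2-sided eBayes tests. Benjamini-Hochberg adjustment covered 54613 probe sets, with no filter on dim signals, after removal of 62 control probe sets. Calls are defined in the report, and in gene lists an adjusted p under 0.05 alone was required. List counts at an unadjusted p under 0.05 have no share of all genes beside them and are not read as results. The study's methods compare 3 groups, of which 2 were analysed here. The p-values measure only the spread between these arrays, whose number limits the precision. The fit was tested on simulated data.

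Platform symbols were updated by Entrez number (21304 of 21359 found). They gave 1 symbol for 41092 probe sets, several for 1800 and none for 11721. In lists a gene was represented by its brightest probe set. The members and lists were chosen with earlier results of these data known. Genes named in the text are the members, up to 4 per list with the smallest p, and the 3 nearest bright probe sets of HBZ, HBE1 and the fetal globins, with exceptions stated. The alternatives were a minimum mean log2 signal of 6, trended and robust eBayes, a block for the replicate number, centring by array median or by 11 housekeeping genes, exclusion of _x_at and _s_at probe sets (which can read several transcripts), counting of all probe sets of a gene, no fold threshold, and omission of each array in turn.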

Additional observations from a re-analysis of the deposited data

How the results depend on the processing

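The median log2 difference of the 22 globin and erythroid regulator probe sets was below 0 in every setting run, whereas the counts of calls changed. This median was -1.30, between -1.47 and -0.96 when 1 array was left out, and -0.23 without _x_at and _s_at probe sets, a setting that removes the HBA and HBG probe sets. Over the array 100 probe sets were called lower and 13 higher, against 0 to 1287 lower and 0 to 595 higher when 1 array was left out, where a lone array is assumed to vary like the other group. The count of the 22 called was 1, and then 0 to 7. With 1 array left out, list counts lay between 0 and 2 for lower EPO receptor signaling genes and between 0 and 1 for lower erythroid factors, lower myeloid markers, higher fetal globin repressors and higher T-cell markers, with the highest values without siNT replicate 1. A minimum mean log2 signal of 6 kept 13 of the 22 probe sets and called 0 of them, with 4 lower and 1 higher over the array. Trended eBayes called 5 of the 22 lower, with 130 lower and 20 higher over the array. Housekeeping centring called 11 of the 22, with 1265 lower and 25 higher over the array, and in the lists 1 erythroid factor, 1 EPO receptor signaling gene, 2 red cell genes, 1 erythroid marker and 1 epithelial or stromal marker lower.

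The groups share replicate numbers, but the labels do not say that a number marks a shared day, and deviations of same-numbered arrays correlated at -0.15 over probe sets. With the replicate number as a block, 977 probe sets were lower and 120 higher, and 12 of the 22 were called. In the lists this block gave 1 lower adult or minor globin, 2 erythroid factors, 1 EPO receptor signaling gene, 3 red cell genes, 2 erythroid markers and 1 megakaryocyte marker lower, and 1 heme gene higher. A crossed replicate block, added after seeing the data, gave 763 lower and 159 higher, 11 of the 22, and 1 erythroid factor, 1 EPO receptor signaling gene, 3 red cell genes and 1 erythroid marker lower, with 1 heme gene and 1 T-cell marker higher. The causes of these changes were not tested. In this section the list counts needed only an adjusted p under 0.05, without the fold threshold of the array counts. They therefore have no matching share of all genes, and nothing is read from them. The red cell and erythroid marker lists share genes such as RHAG, which can be counted in both. LEF1 stayed below 0 and did not pass in any setting that held its brightest probe set.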
